A study of Mus musculus with 8 samples.

Results

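The 47 genes described here encode the contractile filaments, calcium handling proteins, energy enzymes and myogenic regulators of skeletal muscle. They were chosen by symbol, and all 47 stood among the 28918 genes of the expression table. They were followed in subcutaneous tumors of B16mhgp100, a mouse melanoma line carrying the gp100 antigen, in C57BL/6 mice. Colq tumors over-expressed Colq, the gene of a collagenous tail subunit that holds acetylcholinesterase at the neuromuscular junction, and Vector tumors carried the vector alone. All of these mice, those with Vector tumors included, were given anti-PD1, an antibody that blocks an inhibitory receptor on T cells, at 200 µg a dose, 2 doses a week and 4 doses in all, from day 10 after inoculation. Harvest followed 1 day after dosing ended. Each of 3 Colq tumors gave 1 library, while 3 Vector tumors gave 5, since Vector tumors 1 and 2 were sequenced as 2 portions each. The age of the mice, the promoter that drives Colq and the number of clones behind each line are not stated in the labels.

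Skeletal muscle fibers shorten when thick filaments of myosin pull on thin filaments of actin, which troponin and tropomyosin open to myosin once calcium is released from the sarcoplasmic reticulum. Fast and slow fibers build the same machine from different gene copies, so that most thick and thin filament proteins have a fast and a slow isoform. In the mouse a thin sheet of striated muscle, the panniculus carnosus, lies in the subcutaneous layer of the trunk. MyoD and myogenin switch the muscle program on in myoblasts, and Pax7 marks the satellite cells that repair fibers.

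Levels are in TPM, a scale per length of transcript that sums to the same total in every library; sequencing depth is therefore unknown. Between 19887 and 21602 genes were above 0 in a library. Colq itself reached 4.05, 5.03 and 3.86 TPM in Colq libraries and lay between 0 and 0.24 TPM in the Vector libraries; muscle fibers express Colq too, and transcripts of host and line cannot be told apart here. Summed over 8 genes of melanoma cells, Colq libraries held 12221 to 12614 TPM and Vector libraries 20277 to 24797 TPM. Libraries of different Colq tumors differed by a median of 0.106 to 0.111 on the log2(TPM + 1) scale over all tested genes. The paired portions of Vector tumor 1 differed by 0.144, and those of Vector tumor 2 by 0.219.

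Muscle transcripts were far more abundant in Colq tumors. Summed over the 47 genes, the Colq libraries held 1281, 1316 and 1287 TPM. Portions 1 and 2 of Vector tumor 1 held 132.9 and 259.4 TPM, those of Vector tumor 2 298.0 and 89.5 TPM, and Vector tumor 3 held 101.3 TPM. The groups did not overlap, and the lowest Colq library stood 4.30 times above the highest Vector library. With portions averaged, the sum was 1295 ± 19.0 TPM in Colq tumors, against 163.7 ± 54.1 TPM in Vector tumors (SD, n = 3 each), a ratio of 7.91. In bulk tissue, more muscle tissue in a sample, more RNA per fiber and expression in other cells, the tumor line included, cannot be told apart.

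Each gene was then compared between the 3 Colq and the 3 Vector tumors with limma on log2(TPM + 1), where a fold change understates the change of low genes. Of the 47 genes 31 were higher, 0 were lower, 2 were tested and not called, and 14 did not reach the mean of 1 TPM that a test required. The call was a Benjamini-Hochberg adjusted p under 0.05 over all 13726 genes tested, of which 11.3% were higher. Lower calls made up 59.6% of them. A gene that passes the filter only through its Colq level has to differ, so the 27 genes that averaged at least 1 TPM in Vector tumors alone were also counted. Of these 25 were higher, against 10.1% of all genes with that Vector level. The median log2 fold change was 2.22 over the 33 tested muscle genes, those admitted by their Colq level included, and -0.50 over all tested genes. Median-of-ratios size factors brought the median of all genes to -0.01 and the calls over all genes to 3742 higher (27.3%) and 3675 lower, from 1556 higher and 8181 lower, and 32 muscle genes were then higher and 0 lower.

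**Figure D1:**
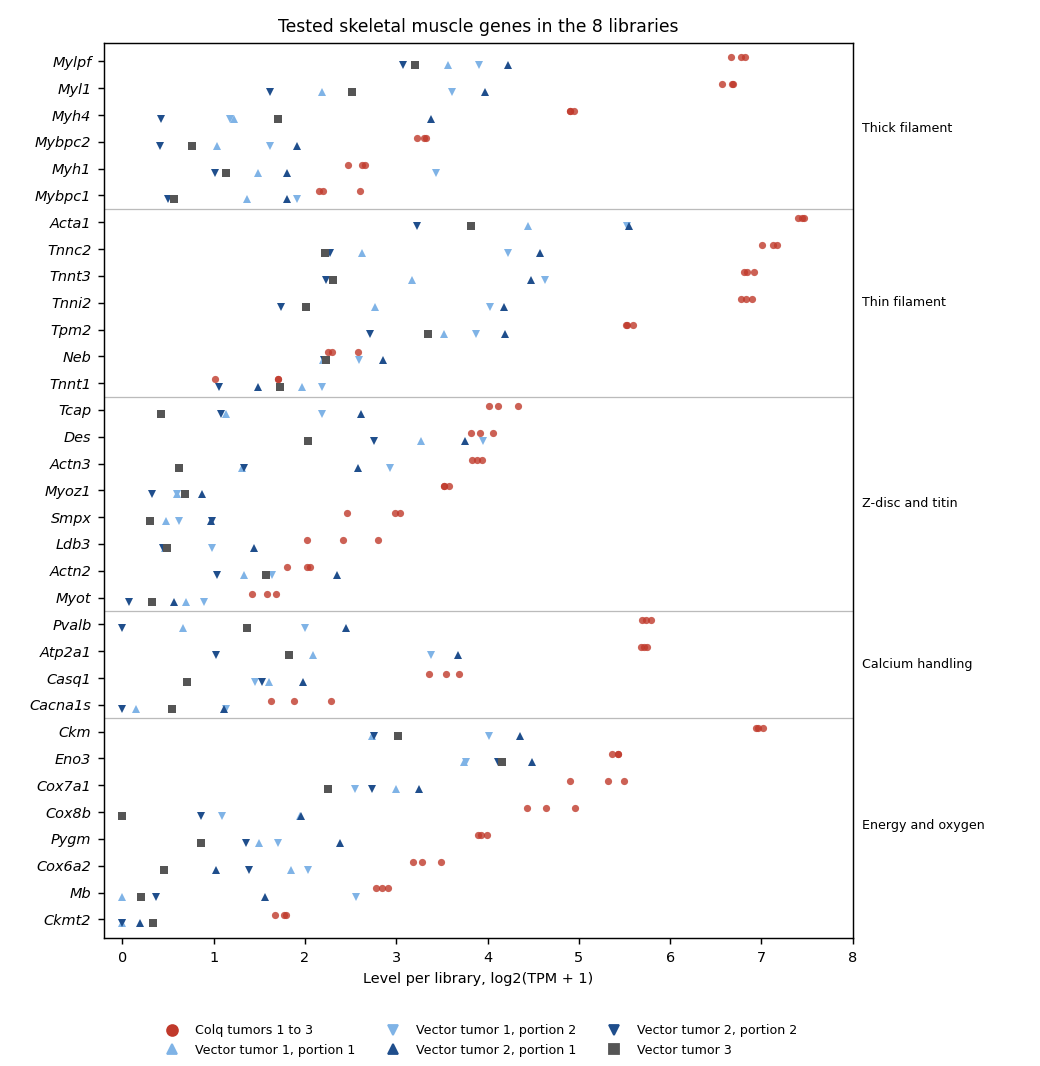
Level of each of the 33 tested muscle genes in every library, as log2(TPM + 1), grouped by role. Red circles are the 3 Colq libraries and the other symbols the 5 Vector libraries. For 28 genes every Colq library lies to the right of every Vector library, and Myh1, Des, Actn2, Neb and Tnnt1 overlap. Among the 28, Myoz1, Smpx, Ldb3, Myot, Cacna1s and Ckmt2 passed the filter through their Colq level alone.

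All 3 Colq libraries exceeded all 5 Vector libraries for 28 of the 33 tested genes, as they did for 9.92% of all tested genes. The 28 include Myoz1, Smpx, Ldb3, Myot, Cacna1s and Ckmt2, which passed the filter through their Colq level alone. For these a difference was built in, and the count is a description. The 3 Colq libraries were close to one another, with a median difference of 0.077 to 0.117 log2 units over the tested muscle genes. Portions of one Vector tumor differed by 0.547 (tumor 1) and 1.15 (tumor 2) over the same genes. Over all tested genes, too, the 3 Colq libraries differed by less than portions of a single Vector tumor, and nothing in the labels says whether they come from separate mice. P-values measure the spread between these samples only, and with the Colq libraries counted as 1 sample 27 muscle genes were higher and 0 lower. The Vector groups' SDs below are taken over tumors after averaging portions and leave that spread out.

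Sequences upstream of the genes are shown because these genes moved together. RefSeq promoter windows (GRCm38.p6, 250 bases before to 50 after a gene's start) were matched by symbol for 37 of the 47 genes, and some genes have more than 1 window. Below are the windows of Ckm, Acta1, Tnnc2, Myl1, Mylpf, Myh4 and Pvalb, whose transcripts are among the most abundant or most changed of their roles. Pvalb has 2 windows, and both are shown. Capitals mark the E-box CAGCTG, a site that MyoD and myogenin can bind, the MEF2 site and the CArG box of serum response factor, searched on both strands. Tnnc2 and the first Pvalb window hold none of these.
Ckm (chr7:19410844-19411143, plus strand): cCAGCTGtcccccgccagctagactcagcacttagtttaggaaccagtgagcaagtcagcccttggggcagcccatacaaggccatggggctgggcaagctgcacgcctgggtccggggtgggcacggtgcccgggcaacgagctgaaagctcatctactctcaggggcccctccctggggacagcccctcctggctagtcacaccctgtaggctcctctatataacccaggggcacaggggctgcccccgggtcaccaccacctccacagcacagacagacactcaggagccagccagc
Acta1 (chr8:123894726-123895025, minus strand): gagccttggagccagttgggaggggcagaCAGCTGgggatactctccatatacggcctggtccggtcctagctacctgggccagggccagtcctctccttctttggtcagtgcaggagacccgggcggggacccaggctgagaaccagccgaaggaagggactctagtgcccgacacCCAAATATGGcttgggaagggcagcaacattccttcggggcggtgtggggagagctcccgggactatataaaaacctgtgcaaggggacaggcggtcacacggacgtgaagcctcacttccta
Tnnc2 (chr2:164779685-164779984, minus strand): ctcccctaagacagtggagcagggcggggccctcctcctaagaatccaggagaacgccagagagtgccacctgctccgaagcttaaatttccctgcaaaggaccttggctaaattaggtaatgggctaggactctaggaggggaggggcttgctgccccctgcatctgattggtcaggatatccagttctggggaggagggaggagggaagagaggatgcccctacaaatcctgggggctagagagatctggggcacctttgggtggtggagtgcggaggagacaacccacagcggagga
Myl1 (chr1:66945007-66945306, minus strand): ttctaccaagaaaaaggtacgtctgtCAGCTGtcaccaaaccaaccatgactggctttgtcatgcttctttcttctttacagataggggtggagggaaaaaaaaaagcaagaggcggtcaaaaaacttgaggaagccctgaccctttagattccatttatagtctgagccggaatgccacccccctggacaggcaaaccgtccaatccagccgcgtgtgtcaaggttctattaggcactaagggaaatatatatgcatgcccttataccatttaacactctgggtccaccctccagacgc
Mylpf (chr7:127211358-127211657, plus strand): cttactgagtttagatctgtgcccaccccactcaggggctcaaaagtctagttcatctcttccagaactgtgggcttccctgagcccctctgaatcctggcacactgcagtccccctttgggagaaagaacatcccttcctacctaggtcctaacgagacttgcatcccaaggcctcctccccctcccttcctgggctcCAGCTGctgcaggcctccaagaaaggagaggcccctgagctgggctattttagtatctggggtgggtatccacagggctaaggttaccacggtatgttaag
Myh4 (chr11:67237562-67237861, plus strand): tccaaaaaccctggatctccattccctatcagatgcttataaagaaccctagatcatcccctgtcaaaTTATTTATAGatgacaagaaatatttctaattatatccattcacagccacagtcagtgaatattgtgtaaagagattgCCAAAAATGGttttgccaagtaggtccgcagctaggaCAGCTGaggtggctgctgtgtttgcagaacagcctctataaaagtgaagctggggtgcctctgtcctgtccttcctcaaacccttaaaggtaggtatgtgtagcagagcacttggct
Pvalb (chr15:78204188-78204487, minus strand): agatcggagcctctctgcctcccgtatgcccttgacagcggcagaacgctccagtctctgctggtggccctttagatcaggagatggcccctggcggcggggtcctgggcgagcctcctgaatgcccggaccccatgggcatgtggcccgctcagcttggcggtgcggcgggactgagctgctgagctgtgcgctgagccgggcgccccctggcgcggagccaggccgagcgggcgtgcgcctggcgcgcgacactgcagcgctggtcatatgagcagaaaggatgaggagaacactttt
Pvalb (chr15:78206351-78206650, minus strand): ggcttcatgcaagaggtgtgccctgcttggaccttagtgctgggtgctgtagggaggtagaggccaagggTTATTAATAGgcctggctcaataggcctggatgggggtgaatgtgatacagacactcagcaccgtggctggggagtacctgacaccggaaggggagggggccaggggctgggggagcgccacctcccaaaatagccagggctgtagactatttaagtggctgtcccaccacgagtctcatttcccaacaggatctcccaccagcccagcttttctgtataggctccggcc
The letters CAGCTG stood in 16 of the 24 higher genes with a window (66.7%), against 17.9% of the 10085 tested genes with a window. They stood in 18 of all 37 (48.6%), tested or not, against 18.3% of all 27025 genes with a window. The looser E-box CANNTG, which includes CAGCTG, was in 83.8% of the 37, against 67.3% of tested and 75% of all genes. The MEF2 site was in 13.5% of the 37, against 1.47% and 2.16% in that order. The CArG box was in 10.8%, against 1.54% and 1.81%. The MCAT motif CATTCC was in 29.7%, against 14.1% and 16.6%. TATAAA, read on the gene's strand only, was in 18.9%, against 5.63% and 9.77%. These are matches of letters and were not tested.

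Among 12 thick filament genes 6 were tested, and all 6 were higher, with log2 fold changes between 0.92 and 3.91. Myl1, an essential light chain of fast myosin, stood at 94.1, 102.3 and 101.5 TPM in Colq libraries and at 3.55 and 11.2 TPM in the portions of Vector tumor 1, 14.8 and 2.08 TPM in those of Vector tumor 2, and 4.73 TPM in Vector tumor 3. Its fold change was 3.91 (SE 0.11, adjusted p = 3.8e-06). The groups lay far apart, and within Vector tumors the portions differed by several fold. Mylpf, the regulatory light chain of fast fibers, averaged 107.0 ± 5.95 TPM in Colq tumors, against 11.1 ± 2.44 TPM in Vector tumors (SD, n = 3 each), a change of 3.22 (SE 0.14, adjusted p = 9.7e-06). Mybpc2, the fast form of myosin binding protein C, averaged 8.76 ± 0.35 TPM in Colq tumors, against 1.27 ± 0.49 TPM in Vector tumors (2.20, SE 0.17, adjusted p = 3.2e-05). Mybpc1, its slow form, averaged 4.04 ± 0.89 and 1.37 ± 0.85 TPM in the same order (1.20, SE 0.28, adjusted p = 0.0064). Its adjusted p was 0.095 with the Colq libraries counted as 1 sample, and 0.070 with portion 2 of Vector tumor 1 and portion 1 of Vector tumor 2 standing for their tumors.

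Myosin heavy chains differed between libraries in make-up as well as level. Myh1, Myh2, Myh4 and Myh8 are near-identical neighbors on chromosome 11, and reads shared between them make the split among them uncertain. Myh4, the motor of the fastest (IIb) fibers, stood at 29.0, 29.8 and 28.9 TPM in Colq libraries. In Vector libraries it stood at 1.33 and 1.27 TPM (tumor 1), 9.45 and 0.34 TPM (tumor 2) and 2.26 TPM (tumor 3), and its log2 fold change was 3.31 (SE 0.18, adjusted p = 1.4e-05). Myh1, the motor of IIx fibers, stood at 5.32, 5.19 and 4.55 TPM in Colq libraries and at 1.81, 9.85, 2.50, 1.02 and 1.19 TPM in the Vector libraries of the same order. Portion 2 of Vector tumor 1 thus exceeded every Colq library for Myh1 while lying far under them for Myh4. The change of Myh1 was 0.92 (SE 0.32, adjusted p = 0.036), and the call was lost in 12 of 22 alternatives. Among these were the fits without Colq replicate 1 (adjusted p = 0.095), 2 (0.091) or 3 (0.072) and without Vector replicate 2 (0.11) or 3 (0.089).

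Myh4 made up 83.0%, 83.2% and 84.9% of summed myosin heavy chain TPM in the Colq libraries. Its share was 34.3% and 10.5% in the portions of Vector tumor 1, 74.4% and 18.4% in those of tumor 2 and 53.9% in tumor 3. Myh1 made up 13.4% to 15.2% in Colq libraries and between 19.7% and 81.5% in Vector libraries. All 3 Colq libraries thus had a higher Myh4 share and a lower Myh1 share than any of the 5 Vector libraries, with summed heavy chain levels of 34.1 to 35.8 TPM in Colq and 1.85 to 12.7 TPM in Vector libraries. Myh2 (IIa fibers) stayed between 0.45 and 0.52 TPM in Colq and 0.16 and 0.74 TPM in Vector libraries, and the slow chain Myh7 was above 0 only in Colq tumor 2 (0.35 TPM) and portion 1 of Vector tumor 2 (0.04 TPM). The embryonic chain Myh3 reached at most 0.09 TPM in Colq and 0.19 TPM in Vector libraries, and the perinatal chain Myh8 at most 0.03 and 0.17 TPM.

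**Figure D2:**
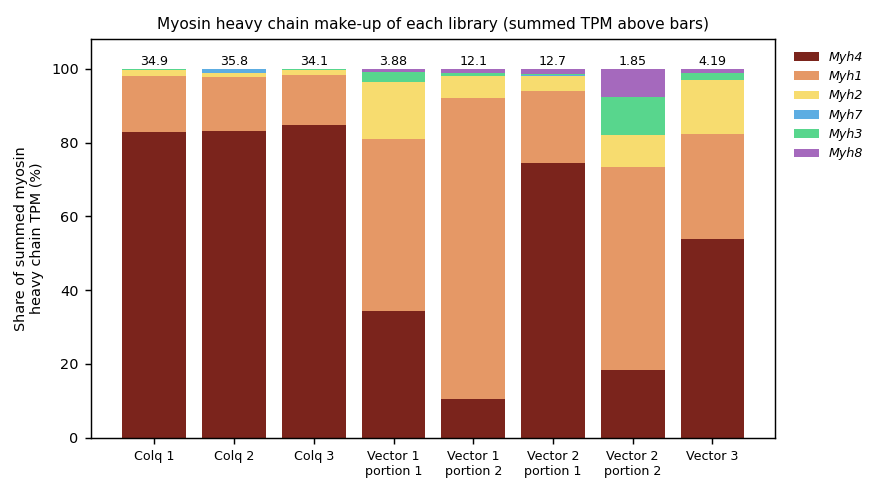
Share of each myosin heavy chain in the summed TPM of the 6 genes, for the 3 Colq libraries and the 5 Vector libraries, with the summed TPM above each bar. Myh4 takes 83.0% to 84.9% in Colq libraries and 10.5% to 74.4% in Vector libraries, where Myh1 takes up to 81.5%.

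Of 9 thin filament genes 7 were tested and 5 were higher. The largest changes were those of the fast troponins, the calcium switch of the thin filament. Tnnc2, the calcium binding subunit, stood at 138.2, 142.9 and 127.3 TPM in Colq libraries and at 5.15, 17.7, 22.8, 3.84 and 3.67 TPM in Vector libraries, listed as tumor 1 (portions 1 and 2), tumor 2 (portions 1 and 2) and tumor 3. Its fold change was 4.08 (SE 0.30, adjusted p = 3.2e-05). Tnni2, the inhibitory subunit, averaged 113.2 ± 4.41 TPM in Colq tumors, against 7.78 ± 4.13 TPM in Vector tumors (4.04, SE 0.31, adjusted p = 3.4e-05). Tnnt3, which ties troponin to tropomyosin, averaged 115.2 ± 4.52 and 10.8 ± 6.16 TPM in that order (3.67, SE 0.35, adjusted p = 8.3e-05). Tpm2, a tropomyosin that smooth muscle also expresses, changed less, at 45.8 ± 1.34 TPM in Colq tumors, against 10.9 ± 1.54 TPM in Vector tumors (2.05, SE 0.10, adjusted p = 1.3e-05).

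Acta1, skeletal muscle actin and the most abundant of the 47 transcripts in Colq tumors, stood at 167.4, 175.6 and 172.6 TPM in Colq libraries and at 20.7, 45.2, 45.9, 8.37 and 13.1 TPM in Vector libraries (3.04, SE 0.26, adjusted p = 4.8e-05). Neb encodes nebulin, a giant ruler protein of the thin filament. It averaged 4.22 ± 0.67 TPM in Colq tumors, against 4.31 ± 0.62 TPM in Vector tumors (-0.01, SE 0.14, adjusted p = 0.95). After removal of the trend on transcript length and GC its fold change was 1.14 (adjusted p = 0.0011), and with size factors 0.44 (adjusted p = 0.035). Tnnt1, the slow troponin T, stood at 1.02 to 2.27 TPM in Colq and 1.09 to 3.56 TPM in Vector libraries, with overlapping groups (-0.22, SE 0.27, adjusted p = 0.50). The slow troponins Tnni1 and Tnnc1 stayed at or under 1.32 TPM in every library and were not tested.

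Fast and slow isoforms of the same protein were set against each other as the difference of their log2(TPM + 1) values in each tumor. For Actn3 the partner was Actn2, which is not a slow isoform but is shared by fast and slow fibers. For 8 of 8 pairs the difference was larger in all 3 Colq tumors than in any Vector tumor. Tnnc2 exceeded Tnnc1 by 6.64 ± 0.62 log2 units in Colq tumors and by 2.40 ± 0.89 in Vector tumors (SD, n = 3 each), and Tnnt3 exceeded Tnnt1 by 5.39 ± 0.36 and 1.50 ± 0.80 in that order. Mybpc2 and Mybpc1 differed least between groups, with 0.97 ± 0.24 in Colq tumors and -0.04 ± 0.26 in Vector tumors. Permuting the 6 tumors exactly, two-sided, gave p = 0.1 for each pair (0.1 after adjustment over the 8), the smallest that 3 against 3 allows. Myl3 was listed at 0 in every library, and Tnni1, Tnnc1, Myh7 and Myl2 also lay under the filter. Where a slow isoform lies near 0 in both groups the difference follows the fast isoform alone. The pairs with these genes therefore largely repeat the change of the fast gene and are no separate sign of a shift between isoforms.

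**Figure D3:**
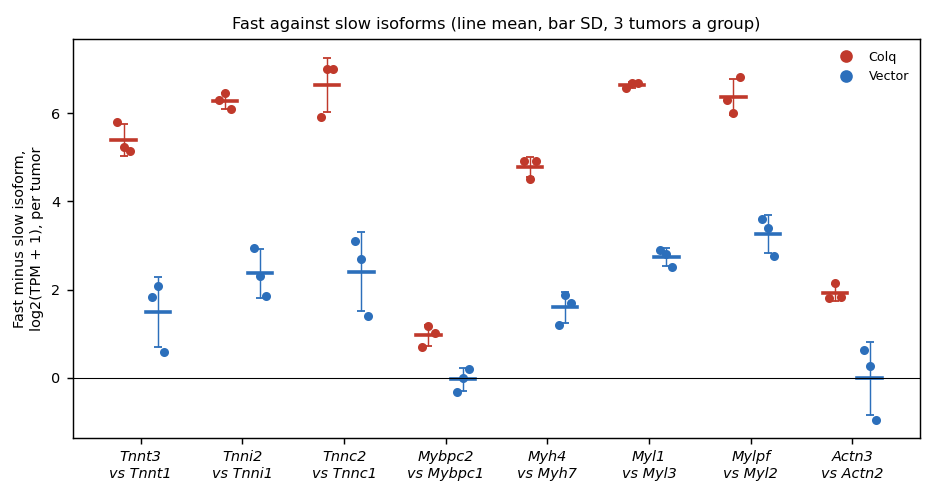
Difference of log2(TPM + 1) between the fast and the paired isoform of 8 muscle proteins, per tumor. The 3 Colq tumors are red, on the left, and the 3 Vector tumors blue, on the right, with mean and SD. The paired isoform is the slow one, except for Actn2, which fast and slow fibers share. Tnni1, Tnnc1, Myh7, Myl2 and Myl3 lay under the filter. In every pair the Colq tumors lie above the Vector tumors, by 4.24 log2 units for Tnnc2 with Tnnc1 and by 1.00 for Mybpc2 with Mybpc1.

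Among 9 genes of the Z-disc and titin, 8 were tested and 8 were higher. Of these, Myoz1, Smpx, Ldb3 and Myot averaged under 1 TPM in Vector tumors and passed the filter through their Colq level alone, so that a difference was built in and their values are a description; the other 4 were higher too. Myoz1, which links alpha-actinin to calcineurin at the Z-disc, stood at 10.9, 10.5 and 10.5 TPM in Colq libraries and at 0.25 to 0.83 TPM in the 5 Vector libraries (fold change 2.91, SE 0.11). Smpx, a small protein of the muscle membrane skeleton, averaged 6.22 ± 1.50 TPM in Colq tumors, against 0.55 ± 0.38 TPM in Vector tumors (2.22, SE 0.24). Both were low in every Vector library, including the portions with the most muscle RNA. Tcap, which caps titin, averaged 16.9 ± 2.04 and 1.94 ± 1.44 TPM in that order (2.85, SE 0.35, adjusted p = 0.00026). Ldb3, a PDZ and LIM protein of the Z-disc, averaged 4.45 ± 1.45 TPM in Colq tumors, against 0.71 ± 0.32 TPM in Vector tumors (1.69, SE 0.23). Actn3, the alpha-actinin of fast fibers, changed by 2.32 (adjusted p = 0.00087) and Myot, myotilin, had a fold change of 1.08.

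Des and Actn2 had the smallest changes of the 8. Des, the intermediate filament of all muscle, smooth muscle included, stood at 14.1, 15.6 and 13.1 TPM in Colq libraries and at 8.65, 14.5, 12.5, 5.74 and 3.08 TPM in Vector libraries (0.97, SE 0.37, adjusted p = 0.047). Portion 2 of Vector tumor 1 lay within the Colq range. The call was lost in 13 of 23 alternatives, among them the fits without Colq replicate 1 (adjusted p = 0.10), 2 (0.12) or 3 (0.092) and without Vector replicate 2 (0.064). Actn2, the alpha-actinin shared by fast and slow fibers, averaged 2.90 ± 0.37 TPM in Colq tumors, against 2.12 ± 0.40 TPM in Vector tumors (0.38, SE 0.14, adjusted p = 0.045). Its call was lost in 12 of 22 alternatives, among them those without Colq replicate 1 (0.12) or 3 (0.13), without Vector replicate 1 (0.090) or 3 (0.069) and with a replicate block (0.099). Titin itself (Ttn) stood at 0.29 to 0.91 TPM in Colq and 0.16 to 0.56 TPM in Vector libraries and was not tested.

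Of 6 calcium handling genes 4 were tested and all 4 were higher. Pvalb, the soluble calcium buffer of fast fibers, had the largest change of all 47 genes. It stood at 54.2, 50.8 and 52.3 TPM in Colq libraries and at 0.59 and 3.00 TPM in the portions of Vector tumor 1, 4.46 and 0 TPM in those of tumor 2 and 1.57 TPM in tumor 3 (4.43, SE 0.08, adjusted p = 7.2e-07). That SE rests on tumor averages that hide a wide range between portions. Atp2a1, the fast fiber pump that returns calcium to the sarcoplasmic reticulum, averaged 51.5 ± 1.23 TPM in Colq tumors, against 5.10 ± 2.21 TPM in Vector tumors (3.41, SE 0.21, adjusted p = 2e-05). Casq1, the calcium store protein of that compartment, averaged 10.6 ± 1.34 and 1.65 ± 0.91 TPM in that order (2.20, SE 0.27, adjusted p = 0.00023). Cacna1s, the voltage sensor of the transverse tubule, averaged 2.88 ± 0.90 TPM in Colq tumors, against 0.563 ± 0.0961 TPM in Vector tumors (1.35, SE 0.20), and it too passed the filter through its Colq level alone. Ryr1, the calcium release channel, stood at 1.07 to 1.31 TPM in Colq and 0.25 to 0.84 TPM in Vector libraries, without overlap but under the filter. Sln, a small inhibitor of the pump, overlapped, at 0.67 to 0.93 TPM in Colq and 0 to 1.52 TPM in Vector libraries.

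All 8 energy and oxygen genes were tested and higher. Ckm, the muscle creatine kinase that buffers ATP, stood at 123.2, 128.3 and 122.0 TPM in Colq libraries and at 5.66, 15.2, 19.5, 5.77 and 7.08 TPM in Vector libraries (3.66, SE 0.13, adjusted p = 9.7e-06). Pygm, the muscle glycogen phosphorylase, averaged 14.4 ± 0.51 TPM in Colq tumors, against 1.91 ± 1.04 TPM in Vector tumors (2.50, SE 0.24, adjusted p = 8.6e-05). Eno3, the muscle enolase, averaged 41.4 ± 1.13 TPM in Colq tumors, against 16.1 ± 3.27 TPM in Vector tumors (1.34, SE 0.14, adjusted p = 0.00011). This was the smallest change of the 8. Cox7a1, a muscle and heart isoform of a cytochrome oxidase subunit, averaged 37.3 ± 7.62 and 5.58 ± 1.69 TPM in that order (2.57, SE 0.22, adjusted p = 5.1e-05). Cox8b changed by 3.70 (adjusted p = 0.00013) and Cox6a2 by 2.12 (adjusted p = 0.00099), both also muscle and heart forms of oxidase subunits. Ckmt2, the mitochondrial creatine kinase of striated muscle, stood at 2.19 to 2.46 TPM in Colq libraries and was above 0 in 2 Vector libraries only, at 0.14 and 0.26 TPM (fold change 1.60). It was the 1 gene of the 8 that passed the filter through its Colq level alone.

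Mb, myoglobin, the oxygen store of oxidative fibers, stood at 5.86, 6.50 and 6.19 TPM in Colq libraries and at 0 and 4.89 TPM in the portions of Vector tumor 1, 1.95 and 0.29 TPM in those of tumor 2 and 0.15 TPM in tumor 3. Portion 2 of Vector tumor 1, the library with the highest Myh1, came close to the Colq range. The change of 2.03 (SE 0.27) had an adjusted p of 0.00035, and of 0.055 with portion 2 of Vector tumor 1 and portion 1 of Vector tumor 2 standing for their tumors.

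The 3 myogenic regulators lay near 0 in most libraries. Pax7 was listed at 0 in every library. Myod1 was at most 0.08 TPM in Colq and 0.21 TPM in Vector libraries. Myog, myogenin, stood at 0, 0 and 0.04 TPM in Colq libraries and at 0.13, 0.79, 1.03, 0.41 and 0.06 TPM in Vector libraries, every Colq library being below every Vector library. All 3 regulators lay under the filter. With no filter, 29 of 45 members above 0 in at least 1 library were higher, against 6.29% of all genes, and the fold change of Myog was -0.43 (adjusted p = 0.097 in that fit).

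**Figure D4:**
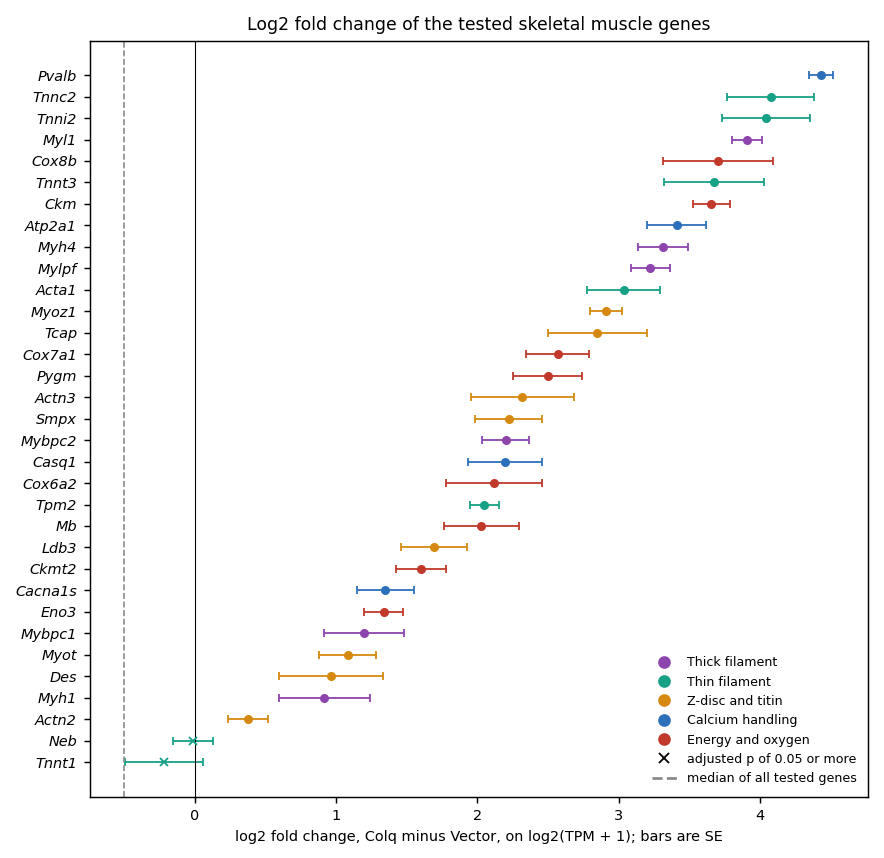
Log2 fold change (Colq minus Vector) with SE for the 33 tested muscle genes, colored by role, in order of size. Pvalb leads at 4.43, 31 genes are called higher, and Neb and Tnnt1 lie beside 0. The dashed line marks the median of all tested genes (-0.50).

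Within Vector tumors the muscle genes moved together between portions. In Vector tumor 1, 17 of the 33 tested genes were higher in portion 2 than in portion 1 by at least 0.5 on the log2(TPM + 1) scale and 1 was lower, against 4.11% of all tested genes higher. In Vector tumor 2, 26 were higher in portion 1 than in portion 2 and 0 were lower, against 5.81% of all tested genes. The same 17 genes passed in both tumors, against 0.903% of all tested genes. In each tumor the difference was taken toward the portion with the larger sum of muscle TPM. An excess of higher muscle genes over all genes was therefore partly built in, and these counts are a description. Each of these comparisons sets 1 library against 1 and has no replicate check. The median difference over the muscle genes was 0.52 in tumor 1 and 1.15 in tumor 2, where all tested genes had medians of 0.01 and -0.11.

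The portions also differed in which muscle genes they held. In tumor 2, Myh4 led with a difference of 2.96, with Atp2a1 at 2.65, Pvalb at 2.45 and Tnni2 at 2.45 behind it. In tumor 1, Mb led at 2.56 and Myh1 followed at 1.95, while Myh4 stood at -0.04 and Cox8b at -0.86. Across the 31 higher genes, log2 levels of portion 1 of Vector tumor 2 followed the Colq mean most closely (Pearson r = 0.89, Spearman rho = 0.89, across genes), and those of portion 2 of the same tumor least (0.67 and 0.68). These correlations describe genes of single libraries that share gene length and annotation, and carry no test. The order of Pearson r over the Vector libraries was the order of their summed TPM over the 47 genes. That sum was 298.0 TPM in portion 1 of Vector tumor 2 and 89.5 TPM in portion 2. Whether r follows the level of muscle RNA or its make-up was not tested. The 31 genes had also been chosen by their difference between Colq and Vector tumors.

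**Figure D5:**
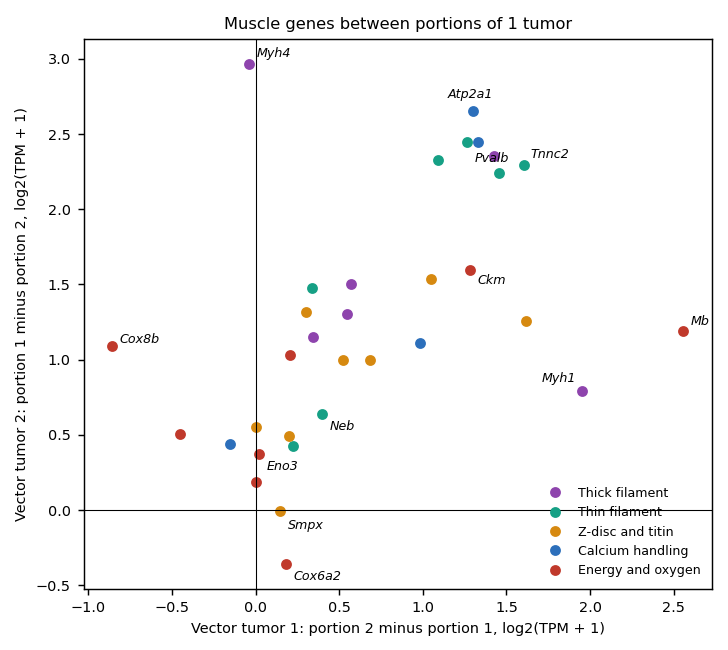
Difference between portions of one Vector tumor on the log2(TPM + 1) scale for each of the 33 tested muscle genes, with tumor 1 (portion 2 minus portion 1) across and tumor 2 (portion 1 minus portion 2) up. Both differences run toward the portion with more muscle RNA. Most genes lie in the upper right. Myh4 differs in tumor 2 only (2.96 against -0.04), and Mb and Myh1 differ most in tumor 1 (2.56 and 1.95).

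Other muscle genes, in 4 further lists, were counted in the same way. Of 113 genes found, 69 were tested, with 23 higher (11.3% over all genes) and 31 lower (59.6% over all genes) and a median log2 fold change of -0.29. After size factors 32 were higher and 13 lower. Of the 23 higher genes 17 averaged under 1 TPM in Vector tumors and passed the filter through their Colq level alone. Among the 52 genes with a Vector mean of at least 1 TPM, 6 were higher and 31 lower, against 10.1% and 61% of all genes with that level. Both counts lie near these shares and are no result about muscle. A Vector mean under 5 TPM was found in 21 of the 23 higher and 7 of the 31 lower genes. Over all genes it was found in 534 of 1556 higher and 3163 of 13726 tested genes. Of 22 other sarcomere and Z-disc genes 8 were higher and 7 lower (13 and 1 after size factors), and 6 of those 8 were under 1 TPM in Vector tumors. Among them the kinase gene Mylk2 averaged 2.42 ± 0.52 TPM in Colq tumors, against 0.28 ± 0.18 TPM in Vector tumors, and Klhl41 3.63 ± 0.21 and 0.94 ± 0.45 TPM in that order. Tpm3, a tropomyosin of many cell types (-0.58, adjusted p = 6.2e-05), and the ubiquitin ligase gene Trim63 (-0.77, adjusted p = 7.8e-05) fell. The call of Tpm3, whose change was near the median of all genes, was lost with size factors (-0.02, adjusted p = 0.72), and with the length and GC trend removed it stood at 0.09 (adjusted p = 0.17).

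The next counts stand beside 11.3% higher and 59.6% lower over all tested genes, or 27.3% and 26.8% after size factors. Of 16 genes of the triad, sarcolemma and junction 7 were higher, 6 of them under 1 TPM in Vector tumors, and 6 fell (9 and 2 after size factors). Trdn, triadin, which holds calsequestrin at the release channel, was at 4.15 ± 0.57 TPM in Colq tumors, against 0.35 ± 0.36 TPM in Vector tumors, and Hrc, another calcium binding protein of that compartment, at 1.97 ± 0.07 and 0.255 ± 0.141 TPM in that order. Both are among those 6. Atp2a2, the calcium pump of slow muscle and of most other cells, fell to 54.9 ± 2.33 TPM in Colq tumors, against 155.3 ± 11.6 TPM in Vector tumors (-1.48, adjusted p = 1.2e-05). Asph, whose products occur in many cell types, changed by -0.88 (adjusted p = 8e-05), and stood at 0.10 with the length and GC trend removed (adjusted p = 0.35). In the energy list of 21 tested genes 5 were higher, 2 of them under 1 TPM in Vector tumors, and 11 fell (7 and 6 after size factors). Pgam2, the muscle phosphoglycerate mutase, changed by 2.26 (adjusted p = 9.9e-05). Hk2, Pgm1 and Gbe1 changed by -1.31, -1.01 and -0.98 (adjusted p = 1.7e-05, 1.6e-05 and 2.4e-05). Of 10 other myogenic and satellite cell genes 3 were higher, all 3 under 1 TPM in Vector tumors, and 7 fell (3 and 4 after size factors). Apobec2, a muscle relative of the cytidine deaminases, averaged 9.98 ± 0.60 TPM in Colq tumors, against 0.90 ± 0.52 TPM in Vector tumors, and the ribosomal protein gene Rpl3l of striated muscle 2.87 ± 0.25 and 0.28 ± 0.16 TPM in that order. Mef2d changed by -1.17 and Mef2c by -1.38 (adjusted p = 1.5e-05 and 0.00011).

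Markers of other cell types were read beside the muscle genes. The counts stand beside 11.3% higher and 59.6% lower over all tested genes, or 27.3% and 26.8% after size factors. Of 11 skin fibroblast and fascia genes 8 rose and 1 fell (10 and 1 after size factors), and the list summed to 404.8 to 440.9 TPM in Colq libraries and 141.4 to 282.7 TPM in Vector libraries. Of 5 white adipocyte genes 2 rose and 0 fell (5 and 0 after size factors). The list summed to 147.2 to 150.4 TPM in Colq and 62.9 to 111.5 TPM in Vector libraries. Much of that gap was Car3 (2.98, adjusted p = 2.1e-05), an enzyme that skeletal muscle holds too. Car3 averaged 53.5 ± 3.67 TPM in Colq tumors, against 6.99 ± 0.58 TPM in Vector tumors. The other riser was Adipoq (0.83, adjusted p = 0.018), whose call was lost in 6 of 22 alternatives. Among these were the fits without Colq replicate 2 (0.056) or 3 (0.059). Lpl, Cfd and Fabp4 were not called. Of 9 keratinocyte genes 5 were higher, 1 of them under 1 TPM in Vector tumors, and 1 fell (5 and 0 after size factors). Sums of the list overlapped, at 48.3 to 54.6 TPM in Colq libraries and 2.95 to 266.6 TPM in Vector libraries. The call of Perp was lost in 6 of 22 alternatives, that of Krt10 in 3 of 23 and that of Lor in 3 of 22. With first portions their adjusted p was 0.45, 0.082 and 0.11. Between portions the lists did not keep one order. In Vector tumor 1, portion 2 held more muscle RNA, with sums of 5.49 TPM for keratinocyte, 218.7 TPM for fibroblast and 77.1 TPM for adipocyte genes, and portion 1 held 266.6, 282.7 and 111.5 TPM of the same lists. In Vector tumor 2, portion 1 held more muscle RNA, with 32.9, 273.4 and 103.4 TPM of these lists, and portion 2 held 2.95, 141.4 and 62.9 TPM. The part of these cell types in the muscle result was not tested.

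Against the same shares over all tested genes (11.3% higher, 59.6% lower), smooth muscle genes rose in 0 and fell in 6 of 7, led by Smtn (-1.20, adjusted p = 6.6e-05) and Acta2 (-1.38, adjusted p = 0.00011). After size factors 2 of the 7 were lower and 0 higher. Des and Tpm2, which smooth muscle also expresses, were higher. Of 4 cardiac genes Nppb rose (1.29, adjusted p = 0.0078), and Ankrd1 (-1.22, adjusted p = 0.010) and Myl4 (-0.60, adjusted p = 0.018) fell; after size factors 1 was higher and 1 lower. With the Colq libraries as 1 sample the adjusted p was 0.13 for Nppb and 0.11 for Ankrd1. The call of Myl4 was lost in 10 of 22 alternatives, among them the fits without Colq replicate 1 (0.054) or 2 (0.058) and without Vector replicate 2 (0.051). The heart troponin I gene Tnni3 stood at 2.24, 1.27 and 2.16 TPM in Colq libraries and at 0 to 2.32 TPM in Vector libraries (0.40, adjusted p = 0.29), while Myh6, Actc1 and Tnnt2 reached at most 0.37 TPM in Colq and 1.76 TPM in Vector libraries. Cox8b and Cox7a1 are also expressed in brown fat, and 5 brown adipocyte genes summed to 0.64 to 0.88 TPM in Colq and 0.31 to 1.76 TPM in Vector libraries. Tendon genes rose in 0 and fell in 1 of 3 (Thbs4, -1.96, adjusted p = 0.00067), as after size factors. Of 8 Schwann cell genes 1 rose and 3 fell (4 and 1 after size factors), with a median log2 fold change of 0.025. The falls were led by Sox10 (-1.33, adjusted p = 1.1e-05), which melanoma cells also express. Plasmacytoid dendritic cells express Cox6a2 as well. Of 3 tested genes of that cell type Irf8 was higher (0.48, adjusted p = 0.042), a call lost in 12 of 23 alternatives, among them the fits without Colq replicate 1 (0.10), 2 (0.11) or 3 (0.088) and without Vector replicate 1 (0.14) or 3 (0.11). Tcf4 fell (-1.34, adjusted p = 2e-05), and Siglech, the defining receptor of these cells, stood at 0.27 to 1.08 TPM in Colq and 0.08 to 0.69 TPM in Vector libraries. Of 8 melanoma cell genes 7 fell and 0 rose, against 5 and 2 after size factors.

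The authors' deposited table of a DESeq2 comparison was read beside these values, with its direction taken from the sign of Colq (log2 fold change 5.48). The authors' deposited table held 45 of the 47 genes, of which 32 had a positive fold change with adjusted p under 0.05, 0 a negative one, 11 were not called and 2 had no adjusted p. Higher calls made up 20.1% of all genes with an adjusted p in the authors' deposited table. There 3850 genes were higher and 3904 lower of 19153, with a median log2 fold change of 0.031. In the comparison above the median of all tested genes was -0.50. Of the 31 genes called higher here 30 were higher there too, the exception being Myh1 (1.32, adjusted p = 0.10 in the authors' deposited table). Neb (0.55, adjusted p = 0.0075) and Ryr1 (1.68, adjusted p = 1.1e-06) were called higher in the authors' deposited table and not in the comparison above, where Ryr1 lay under the filter; with no filter it had an adjusted p of 0.046. For low genes the authors' deposited table gave larger fold changes, such as 4.95 for Ckmt2, whose change on the log2(TPM + 1) scale was 1.60.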

How the data were processed

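Tumor RNA was extracted with TRIzol, selected for poly-A and made into non-directional libraries, per the labels' protocols, so antisense reads are not told apart. The authors deposited log2(TPM + 1) values, and RSEM, DESeq2 and the build mm39 are named in the submitters' processing notes. TPM keeps no depth, so no counting error is given. The authors' deposited DESeq2 table holds a normalized mean signal, a log2 fold change with its SE, a test score and p-values; its direction was read from Colq. A deposited table of receptor repertoires was not used.

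Values were turned back to TPM for levels. Portions were averaged per tumor, on the log2 scale for tests and as TPM for levels. limma 3.58.1 (R 4.3.3, moderated with a trend) was fitted to 6 tumors over genes with a mean of at least 1 TPM, with a pseudocount of 1, and p-values were adjusted by the Benjamini-Hochberg method over all 13726 genes. Adjusted p-values in the text without another tool named are limma's. The code was tested on simulated data. Pairs were compared by exact permutation (scipy 1.17.1). Gene lengths and promoters came from GRCm38 annotations, matched by name or gene ID and not used for the authors' coordinates. In each role up to 4 tested genes with the smallest p got full statistics, as did up to 4 genes of each other list; further genes were chosen after their values were seen. No p is printed for named genes that passed the filter through their Colq level alone. The genes and lists were chosen with earlier results of these data known. Alternatives covered pseudocount, filter, scaling, the use of portions, left-out tumors, a replicate block, length and GC content. The result of 1 gene of the other lists is not reported here.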

Additional observations from a re-analysis of the deposited data

Results flagged for a closer look

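Dixon's test over the 5 Vector libraries was run on 34 sets of values, and by chance it marks about 1 set in 20. Myh1 in portion 2 of Vector tumor 1, at 9.85 TPM, stood apart from the other Vector libraries. Myh4 in portion 1 of Vector tumor 2, at 9.45 TPM, stood apart as well. Both libraries share a tumor with another of the 5, so the values are not independent, and reads shared between these near-identical genes were not tested as a cause.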

How the results depend on the processing

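The number of muscle genes called higher was 31 and lay between 22 (a mean of at least 5 TPM, where 22 were tested) and 32 over 23 alternatives, and 0 were lower in each. Of the 31 genes 26 kept their call in every alternative that tested them, and 5 (Myh1, Actn2, Des, Mybpc1 and Mb) lost it in at least 1. Leaving out 1 tumor gave 28 to 30 higher muscle genes, 1310 to 1549 higher and 7484 to 8216 lower genes in all, and 21 to 23 higher and 26 to 31 lower other muscle genes. Over all genes, higher calls came to 3742 with size factors, 3189 with quantile normalization, 2587 without the trend on length and GC and 788 when Colq libraries were merged into 1 sample, and lower calls to 3675, 4160 and 3651 in the first 3 of these settings. Other muscle genes gave 38 higher with no filter, 4 with a mean of at least 5 TPM and 11 with merged Colq libraries; lower calls were 13 with size factors, 18 with quantile normalization, 11 after removal of the length and GC trend and 16 with merged Colq libraries, which gives the lone sample the spread of the Vector group. Size factors moved the summed TPM of the 47 genes in Colq tumors to 1632. The sign turned for Tnnt1 with size factors (0.14, adjusted p = 0.69) and without Colq replicate 1 (0.012), and leaving out 1 tumor gave -0.426 to 0.012. Neb turned positive with size factors (0.44), quantile normalization (0.33), second portions (0.03), portion 1 of Vector tumor 1 with portion 2 of Vector tumor 2 (0.16), without Colq replicate 2 (0.05) or 3 (0.03), without Vector replicate 2 (0.062; -0.113 to 0.062 when leaving out 1 tumor) and after removal of the length and GC trend (1.14). That last setting also turned Tpm3 (0.092), Asph (0.10), Mylk (0.27) and Mbp (0.18), and size factors turned Bst2 (0.41, adjusted p = 0.0017); the cause was not tested. Using 1 given portion per divided tumor was added after seeing the data. Same-numbered Colq and Vector tumors correlated at 0.030, 0.0070 and 0.044 in their deviations, so the numbers are only names; a replicate block gave 30 higher muscle genes, 1526 higher and 7928 lower genes in all, and 22 higher and 28 lower other muscle genes. Low levels near 1 TPM limit the 14 genes under the filter.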

Other observations

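Across genes, longer transcripts had lower fold changes, with Spearman's rho of -0.52 between exonic length and log2 fold change over the 33 tested muscle genes and -0.52 over 13211 tested genes with a length. Genes are not independent replicates, and no test was made. Neb, the longest tested muscle gene with 26582 exonic bases, had a fold change of -0.01, and 37 tested genes of like length (within 0.25 on the log2 scale) had a median of -1.08. For Tnnt1, at -0.22, the median of 1419 tested genes of like length was -0.26.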
